A study of Mus musculus with 4 samples.

Results

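Conventional type 1 dendritic cells (cDC1) of the aged mouse kidney were selected by a rule on single barcodes. A member had at least 1 unique molecular identifier (UMI) of Ptprc, at least 2 UMIs of Xcr1 and Clec9a together, and at least 10 of H2-Aa and H2-Ab1 together. It had at most 1 UMI of Ccr7, at most 9 of the C1q genes (C1qa, C1qb and C1qc), at most 2 of Mki67 and Top2a, and 0 of Cd3d, Cd3e, Cd3g and Cd79a. The rule found 331 of 76278 barcodes, of which 50605 passed the quality filter and 21567 of those were Ptprc-positive. The members were thus 1.53% of the Ptprc-positive barcodes. The BPTES libraries held 82 and 78 of them, and the DMSO libraries 95 and 76. The rule reads these same counts, so the levels of its genes describe the selection, and no test of them is reported.

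Kidneys came from male C57BL/6 mice that were 19 months old when treatment began and received either BPTES or the vehicle DMSO for 1 month, with 2 libraries in each group. The agent BPTES acts on the use of glutamine by cells. Tissue was digested with liberase and stained for CD45, and 20000 CD45-negative and 9000 CD45-positive cells were mixed for each library. The labels do not say which libraries came from separate animals, so p-values measure the spread between these libraries, which may be technical. No allele or transgene is given for either group in the labels.

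As background, cDC1 take up material from dying cells and present it on MHC class I to CD8 T cells, a process called cross-presentation. The chemokine receptor XCR1 and the lectin CLEC9A (also called DNGR-1, which binds actin filaments exposed on dead cells) mark them. Their development needs the transcription factors IRF8 and BATF3, which bind composite elements made of an IRF and an AP-1 half-site. CLEC9A is also found at lower levels on plasmacytoid dendritic cells and dendritic cell precursors in mice.

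The 2 genes that lead the selection are shown with the 250 bases before their RefSeq start, since both windows hold the letters of such a composite element. The window of Xcr1 is chr9:123862030-123862279 on the minus strand and that of Clec9a is chr6:129408612-129408861 on the plus strand (build GRCm38.p6, both 5′ to 3′ on the gene's strand). Capitals mark a match to TTTC, any 4 bases and TGA, searched on both strands.
Xcr1: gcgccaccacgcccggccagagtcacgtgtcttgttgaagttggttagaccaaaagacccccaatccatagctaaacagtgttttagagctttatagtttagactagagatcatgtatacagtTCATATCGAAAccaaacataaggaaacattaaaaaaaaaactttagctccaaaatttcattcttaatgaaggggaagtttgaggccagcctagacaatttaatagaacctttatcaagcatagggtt
Clec9a: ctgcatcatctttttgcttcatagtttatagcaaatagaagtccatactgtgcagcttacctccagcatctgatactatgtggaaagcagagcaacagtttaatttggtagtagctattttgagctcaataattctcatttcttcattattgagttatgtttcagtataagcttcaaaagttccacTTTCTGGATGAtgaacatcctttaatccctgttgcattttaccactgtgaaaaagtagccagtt
The match lay on the reverse strand of the Xcr1 window and on the forward strand of the Clec9a window. Of all 32851 promoter windows of this length, 3.82% held these letters. Of 24 genes of the cDC1 identity list with a window, 4 held them, against 4.41% of all 27025 genes (Xcr1, Clec9a, Gcsam and Hepacam2). The match is a description of letters, not evidence of a bound site.

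The selected cells were not of 1 kind. The data go against the label for 1 set of the members without Xcr1, and the other set carried mixed markers, as given below. UMIs of both Xcr1 and Clec9a were present in 196 members (59.2%), called double-positive cells here (50 and 48 with BPTES, 50 and 48 with DMSO). A further 66 members (19.9%) had Clec9a, no Xcr1 and at least 3 UMIs of Siglech, a lectin gene of plasmacytoid dendritic cells, with 17 and 13 with BPTES and 28 and 8 with DMSO. The last 69 (20.8%) had Clec9a, no Xcr1 and at most 2 UMIs of Siglech, with 15 and 17 with BPTES and 17 and 20 with DMSO. Members with Xcr1 and without Clec9a numbered 0. This division by Siglech was made once the values were known. The whole of the members is called the selected cells from here on, and results are also given for the double-positive cells.

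The double-positive cells carried most of the cDC1 markers that the rule did not read, with exceptions given below. Levels are CPM, the UMIs of a gene in the summed cells of a library scaled to a common total of all genes. Naaa, the third marker named for cDC1 and the gene of a lysosomal acid amidase, stood at 1368 and 1391 CPM with BPTES and 1720 and 1741 CPM with DMSO, and every one of the 196 cells had at least 1 UMI (median 51.5). Irf8 stood at 1590, 1669, 1633 and 1599 CPM, in the same order of libraries. Tlr3, the receptor for double-stranded RNA, stood at 397, 387, 321 and 361 CPM and was detected in 94.9% of the double-positive cells. Cadm1 was detected in 93.9%, Itgae, the CD103 integrin chain, also in 93.9%, and Batf3 in 90.3%. Wdfy4, which is needed for cross-presentation of cell-associated antigen, was detected in 99.5%.

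The other sets had lower levels of most of these, though not of Irf8 in the cells with Siglech. Wdfy4 was still detected in 94.1% of the cells without Xcr1. Among the cells with Siglech, Naaa stood at 34.1, 6.43, 11.4 and 8.86 CPM and Tlr3 had 0 UMIs in every library. Their Siglech level of 1991, 2770, 2491 and 2724 CPM restates how the set was chosen. Their Ccr9 level, which did not choose it, was 543, 734, 779 and 850 CPM, and their Irf8 level 1886, 2452, 1997 and 2454 CPM. Ccr9 and Irf8 are both genes of plasmacytoid cells. In the remaining set Wdfy4 stood at 542, 470, 757 and 407 CPM and Batf3 at 109, 45.8, 96.7 and 101 CPM, against 2127 to 2330 CPM and 116 to 146 CPM in the double-positive cells. Naaa stood there at 231, 181, 389 and 186 CPM and Irf8 at 407, 121, 344 and 137 CPM, while Cd209a, a marker of type 2 dendritic cells, stood at 381, 721, 651 and 790 CPM. In the double-positive cells Cd209a stood at 74.4, 21.1, 35.3 and 28.7 CPM and Siglech at 77.5, 30.7, 14.5 and 11.8 CPM.

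**Figure D1:**
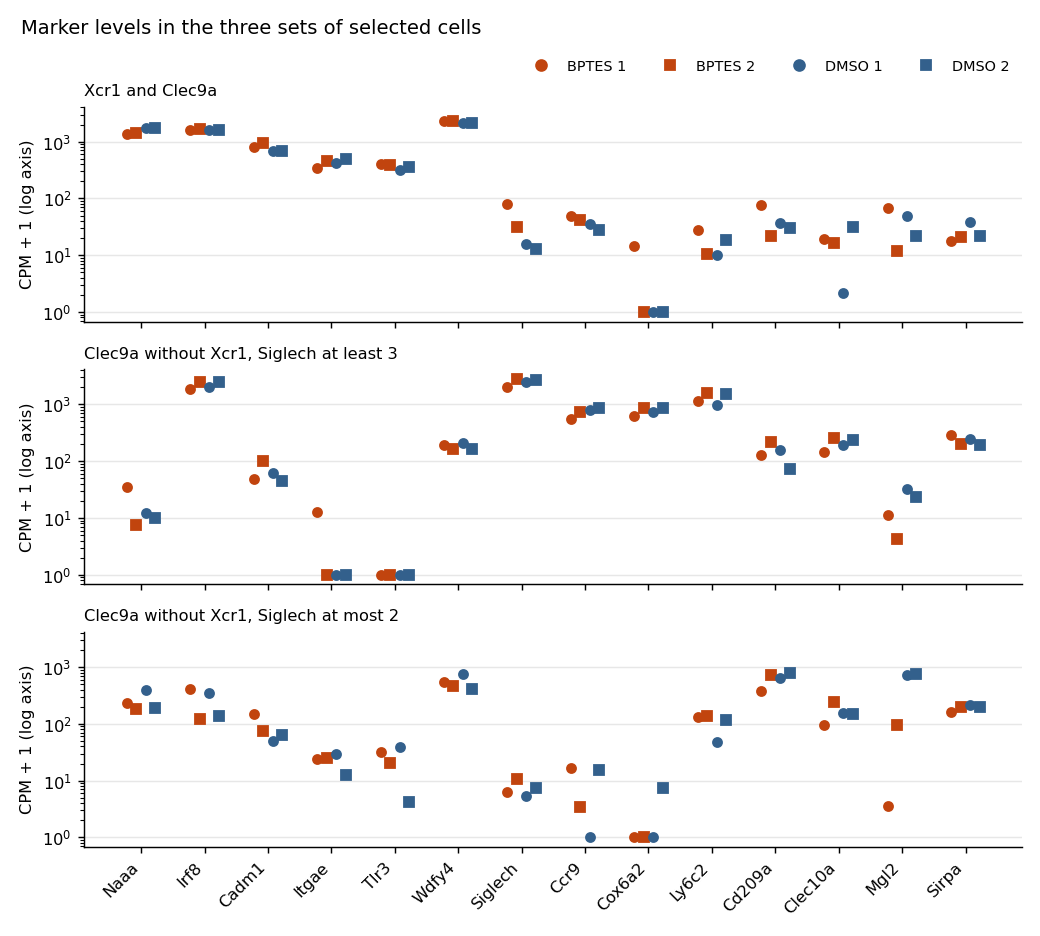
CPM plus 1 (log axis) of marker genes in the summed cells of each set, with 1 point per library (BPTES orange, DMSO blue). The cDC1 markers Naaa, Cadm1, Itgae and Tlr3 are high in the top panel, the plasmacytoid markers Siglech (which defines that set) and Ccr9 in the middle panel, and Cd209a in the bottom panel.

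Members near the limits of the rule are given by their Naaa level. The 40 members with exactly 2 UMIs of Xcr1 and Clec9a together had 111 CPM of Naaa, and the 86 barcodes with 1 such UMI that met every other limit had 175 CPM. The 33 members just inside the limit on H2-Aa and H2-Ab1 had 334 CPM of Naaa, against 57.6 CPM in the 71 barcodes just outside. The limit on Mki67 and Top2a, genes of dividing cells, was the sole reason for leaving out 21 and 17 barcodes with BPTES and 25 and 32 with DMSO, and 18, 17, 22 and 30 of these carried both Xcr1 and Clec9a. The limit on the C1q genes, a macrophage mark, alone left out 192, 170, 240 and 107 barcodes, of which 37, 27, 34 and 36 were double-positive.

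Libraries held 249881074 to 297947661 UMIs, and the selected cells of a library held 2192770 to 2985474 UMIs. The median member had 31642 and 29810 UMIs with BPTES and 27593 and 37306 with DMSO. Between 90 and 114 barcode sequences recurred in each pair of libraries, and 0 of the members' barcodes did. Markers of T cells, B cells and natural killer cells were near 0 in the double-positive cells, with summed levels of at most 8.86 CPM per list and library (3 of 9, 3 of 7 and 5 of 9 genes at 0 UMIs). The 3 T cell genes at 0 (Cd3d, Cd3e and Cd3g) and 1 of the B cell genes at 0 (Cd79a) are those that the rule itself set to 0.

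Beside type 2 dendritic cells (cDC2) of the same libraries, the double-positive cells stood apart in a broad set of genes, given here as a description with no test. The cDC2 were 395 barcodes chosen by Cd209a and Clec10a with Flt3 or Zbtb46 and without Xcr1 or Clec9a. Among genes of at least 100 CPM in the double-positive cells and 3 CPM in cDC2, with the lowest double-positive library above the highest cDC2 library, Tlr3 had the largest ratio of mean levels (367 against 6.11 CPM, 60.0-fold). It was followed by P3h2 (33.1-fold), a collagen prolyl hydroxylase, Rab7b (31.9-fold), a GTPase of late endosomes, Itgae (28.7-fold) and Irf8 (26.8-fold). The interferon-inducible Ifi205 (26.5-fold), Cadm1 (21.4-fold), the nucleotide sugar receptor P2ry14 (21.4-fold) and the lysosomal thioesterase Ppt1 (14.5-fold) were also in this group. The scavenger receptor Cd36 was 10.7-fold higher and Naaa 9.26-fold. This ranking left out the genes of the rule and names of the form Gm and digits or ending in Rik. Identity genes under 3 CPM in cDC2 had larger ratios, such as Snx22 (106 against 0.589 CPM) and Clnk (214 against 1.78 CPM). Among genes higher in cDC2, the decoy receptor for interleukin 1, Il1r2, stood at 21.6 CPM in the double-positive cells and 667 CPM in cDC2, and the calcium-binding S100a4 at 89.0 and 1311 CPM. The chemokine receptor Ccr1 stood at 4.75 and 172 CPM and the lectin Mgl2 at 36.5 and 746 CPM. Cd8a and Cd207, which mark cDC1 of spleen and skin, were low in the double-positive cells at 2.66 and 6.75 CPM. Nfil3 (5.98 against 25.6 CPM), Bcl6 (161 against 280 CPM) and Itgax (110 against 226 CPM), also on the cDC1 identity list, were lower than in cDC2.

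The share of selected cells among the Ptprc-positive barcodes did not separate the groups. It was 1.49% (82 of 5489, exact Clopper-Pearson 95% interval 1.19 to 1.85) and 1.54% with BPTES, and 1.63% and 1.46% with DMSO. The means were 1.52% ± 0.0354 and 1.55% ± 0.124 (SD, n = 2), a difference of -0.0272 percentage points with an exact two-sided permutation p of 1.0. The smallest p that 2 against 2 libraries allow is 0.333, from 2 of 6 splits, so this test could not have called a difference, and intervals cover counting error only. With each barcode thinned to 5000 UMIs the means were 1.78% and 1.80%, after leaving out 2 members with BPTES and 6 with DMSO that were shallower. The share covers only cells kept by the limits on Ccr7, C1q, Cd3, Cd79a and dividing-cell genes. Before these limits, 178 and 161 barcodes with BPTES and 196 and 218 with DMSO were double-positive. Of these, 50, 48, 50 and 48 were kept. The Ptprc-positive barcodes numbered 5489, 5052, 5816 and 5210, and a share before the limits was not tested.

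Among dendritic barcodes alone, the selected cells made up a larger part in both BPTES libraries. The share of selected cells among selected, cDC2 and mature Ccr7 barcodes together was 49.4% and 52.3% with BPTES and 31.1% and 41.1% with DMSO, and the groups did not overlap. The means were 50.9% ± 2.09 and 36.1% ± 7.02 (SD, n = 2), with an exact permutation p of 0.333. Thinned to 5000 UMIs, the means were 48.1% and 38.1%. The other dendritic cells in the denominator differed in number. Mature cells, which carry the lymph-node homing receptor Ccr7 with Fscn1 or Ccl22, were 0.113% ± 0.0202 of the Ptprc-positive barcodes with BPTES and 0.607% ± 0.0170 with DMSO (SD, n = 2; 7 and 5 against 36 and 31 barcodes). The cDC2 were 77 and 66 barcodes with BPTES and 174 and 78 with DMSO, so the first DMSO library held most of that difference. The limit on Ccr7 alone kept 3 and 1 BPTES and 4 and 9 DMSO barcodes out of the selected cells.

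**Figure D2:**
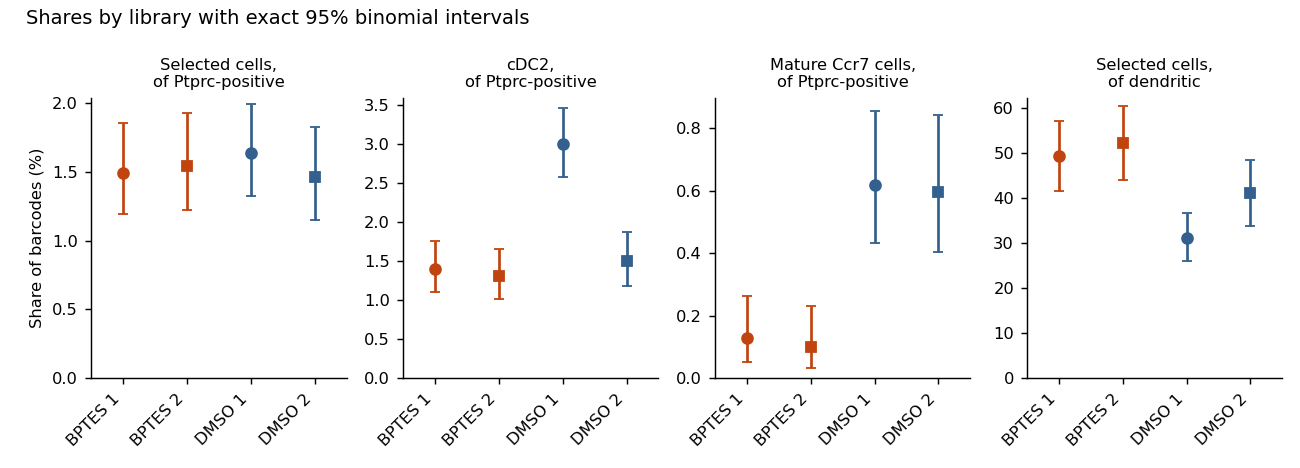
Share of barcodes (%) by library with exact 95% binomial intervals, for selected cells, cDC2 and mature Ccr7 cells among Ptprc-positive barcodes, and for selected cells among dendritic barcodes. Selected cells sit at 1.46% to 1.63% in every library, while mature cells are higher in both DMSO libraries.

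Counts were then summed over the selected cells of each library and compared with edgeR's quasi-likelihood test and Benjamini-Hochberg adjustment over all tested genes. Of 10450 genes, 1 passed the threshold of 0.05, a percentage of 0.00957, and 930 (8.9%) had an unadjusted p under 0.05. These totals include the few genes of the rule that passed the filter on low counts (10440 genes lay outside the rule, and 9042 in the double-positive cells), while the counts for gene lists leave them out. Each change is BPTES over DMSO on the log2 scale, given as the value ± its SE, and named genes are given as CPM after TMM scaling unless a set is named. The gene was Ear2 (ENSMUSG00000072596, chr14:44102654-44103531 in GRCm38.p6), an eosinophil-associated ribonuclease. After scaling by TMM, Ear2 stood at 16.8 and 18.3 CPM with BPTES and 77.4 and 69.4 CPM with DMSO. Both BPTES libraries were below both DMSO libraries. The change was -2.06 ± 0.17 (edgeR adjusted p 0.0263). In cDC2 Ear2 stood at 55.1 and 14.97 against 117 and 162 CPM (-1.94 ± 0.70, edgeR adjusted p 0.551), and the interaction was -0.01 ± 0.54. Ear2 belongs to a family of near-identical genes, so its reads may be split among copies. Without each library in turn (BPTES 1 and 2, DMSO 1 and 2), Ear2 was still called and the number of calls was 39, 9, 25 and 2.

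Most of the DMSO UMIs of Ear2 lay in cells without Xcr1. In the set with Clec9a, no Xcr1 and little Siglech, Ear2 had 0 and 2 UMIs with BPTES and 95 and 116 UMIs with DMSO, and the latter came from 3 and 4 barcodes. In the set with Siglech it had 7 and 0 UMIs with BPTES and 61 and 0 with DMSO. In the double-positive cells it had 37 and 37 UMIs with BPTES and 76 and 75 with DMSO, spread over 16, 15, 21 and 28 barcodes. There the levels were 23.1 and 25.7 CPM against 44.8 and 38.5 CPM, a change of -0.77 ± 0.22 that was not called (edgeR adjusted p 0.166).

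Other genes of the whole selected set followed the same division among cells. The lectin gene Mgl2 stood at 43.2 and 26.8 CPM with BPTES and 147 and 184 CPM with DMSO (-2.22 ± 0.24, edgeR adjusted p 0.151). Of its UMIs, 333 and 459 of those in the DMSO libraries lay in the set with little Siglech, against 1 and 40 with BPTES. The D-type cyclin gene Ccnd2 stood at 36.3 and 41.9 against 116 and 98.5 CPM (-1.46 ± 0.16, edgeR adjusted p 0.0898). In the set with little Siglech it stood at 64.8 and 113 against 439 and 281 CPM, and in the double-positive cells at 31.8 and 22.9 against 40.7 and 47.8 CPM. The MHC class II chaperone gene H2-DMb2 stood at 89.4 and 90.3 against 150 and 136 CPM in all selected cells (-0.67 ± 0.12, edgeR adjusted p 0.322). In the double-positive cells its unscaled levels of 118, 87.9, 119 and 85.7 CPM overlapped between the groups. Summed markers of cDC2 (10 genes, 0 of them at 0 UMIs) stood at 746 and 846 against 972 and 995 CPM in the selected cells, and their part in these differences was not tested.

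Among the double-positive cells, 14 of 9050 genes were called (0.155%), 5 higher (0.0552%) and 9 lower (0.0994%) with BPTES, and 1315 (14.5%) had an unadjusted p under 0.05. In groups formed once their values were known, they were 4 higher genes detected in most cells, 3 lower genes held by few cells, 2 lower genes that were detected in more cells, and 5 genes that markers of other cell types accompanied. All 14 were also called with RLE scaling, and with no filter on low counts, where 585 genes were called. Leaving out predicted doublets kept 10 of the 14 calls. Leaving out 4 barcodes with at least 3 UMIs of Ace or F10, described below, kept 7. In fits without 1 library, the lone library of a group is assumed to vary like the other group. DESeq2 called 13 of the 14 and gave no adjusted p for Adh1. The number of edgeR calls was 120 and 83 without the first and second BPTES library, and 92 and 287 without the first and second DMSO library.

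4 called genes were higher with BPTES and were detected in most double-positive cells of every library, although 2 barcodes held most of the UMIs of 1 of them, Tgfbr1, in the first BPTES library. Entpd1 (ENSMUSG00000048120, chr19:40612366-40741602) encodes CD39, which breaks down extracellular ATP. It stood at 257 and 216 CPM with BPTES and 118 and 106 CPM with DMSO, a change of 1.08 ± 0.13 (edgeR adjusted p 0.0181). Each BPTES library was above each DMSO library, and Entpd1 was detected in 42 of 50, 47 of 48, 37 of 50 and 38 of 48 cells. Without the 2 barcodes of each library that held most of its UMIs, Entpd1 stood at 203 and 180 against 98.9 and 83.2 CPM.

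Tgfbr1 (chr4:47353222-47414926) encodes the type I receptor for transforming growth factor beta. It stood at 124 and 177 CPM with BPTES and 62.5 and 62.2 CPM with DMSO (1.27 ± 0.18, edgeR adjusted p 0.0387), in 33, 38, 32 and 29 cells. In the first BPTES library 2 barcodes held 67 and 44 of its 199 UMIs, and without them that library stood at 59.2 CPM, below the unscaled 61.3 and 62.1 CPM of the DMSO libraries. With the 2 highest barcodes of every library left out, Tgfbr1 stood at 59.2 and 147 against 48.5 and 50.3 CPM. Stk10 (chr11:32533266-32624595) encodes a kinase of lymphocytes and other leukocytes that acts on proteins linking the membrane to actin. Its levels were 182 and 195 against 104 and 102 CPM (0.87 ± 0.12, edgeR adjusted p 0.0357), in 46, 42, 41 and 43 cells. Srgap3 (chr6:112717971-112947505) encodes a GTPase-activating protein. Its levels were 380 and 369 against 225 and 236 CPM (0.70 ± 0.10, edgeR adjusted p 0.0357), in 50, 47, 48 and 47 cells. Neither gene's groups overlapped, and both genes' groups stayed apart without the 2 highest barcodes of each library (157 and 173 against 92.2 and 87.4 CPM for Stk10, 368 and 342 against 210 and 221 CPM for Srgap3).

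The same genes were read in the sets without Xcr1, again as a description. Srgap3 stood at 241 and 191 CPM with BPTES and 131 and 144 CPM with DMSO in the set with little Siglech, and Stk10 at 379 and 311 against 228 and 185 CPM. In the set with Siglech, Srgap3 stood at 367 and 521 against 454 and 594 CPM, and Stk10 at 128 and 64.3 against 149 and 97.5 CPM. The groups overlapped in that set for both genes. For Entpd1 they overlapped in both sets without Xcr1, with 186 and 12.9 against 75.9 and 84.2 CPM and with 98.6 and 45.8 against 118 and 49.0 CPM. Tgfbr1 also overlapped in the set with little Siglech (231 and 94.0 against 96.7 and 149 CPM).

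**Figure D3:**
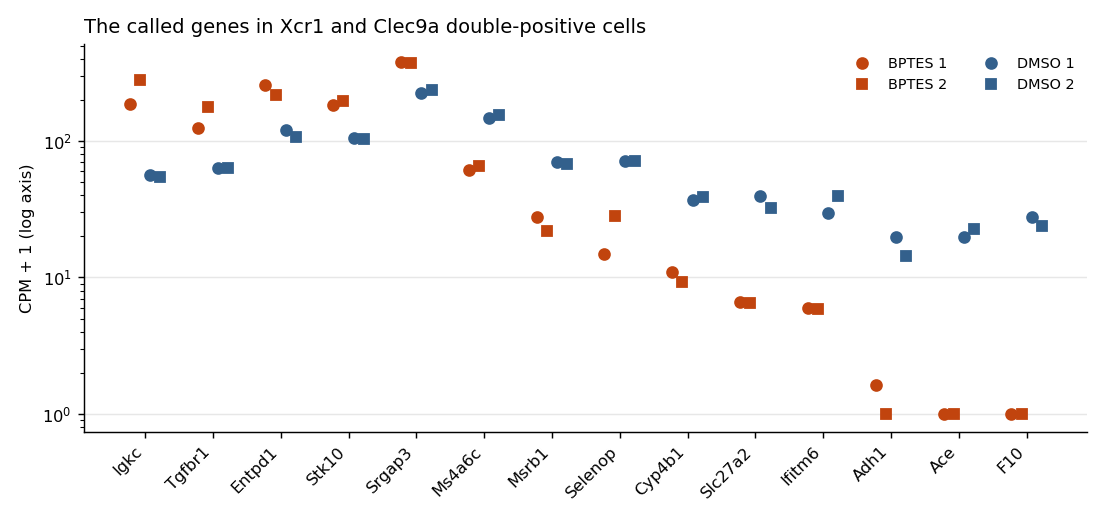
CPM plus 1 (log axis) of the 14 called genes in the summed double-positive cells, with 1 point per library (BPTES orange, DMSO blue), ordered by fold change. Ace and F10 have 0 UMIs in both BPTES libraries, while Srgap3 and Entpd1 are above 100 CPM in all 4 libraries.

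Ace, F10 and Ifitm6 fell, with their UMIs held by few DMSO cells. F10, the gene of coagulation factor X, had 0 UMIs in both BPTES libraries and 89 in the DMSO libraries, at least 24.7-fold lower against a floor of 3 UMIs over the group. Ace, the gene of angiotensin-converting enzyme, had 0 against 74 UMIs, at least 20.6-fold lower against the same floor. Both were called (edgeR adjusted p 0.0178 for F10 and 0.0181 for Ace). They passed the filter on low counts through the DMSO libraries alone, so these p-values are no evidence of a lower level across the cells. Of the F10 UMIs, 84.3% came from the highest barcode of each DMSO library. Barcodes with at least 3 UMIs of Ace or F10 numbered 1 in the first and 3 in the second DMSO library. Ifitm6, of the interferon-induced transmembrane family, stood at 4.99 and 4.85 against 28.9 and 38.5 CPM (-2.76 ± 0.34, edgeR adjusted p 0.0181). Ifitm6 also passed that filter through the DMSO libraries alone, and the 4 barcodes held 79 of its 124 DMSO UMIs.

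The lower genes Ms4a6c and Msrb1 were detected in more cells, Ms4a6c in 31 and 30 and Msrb1 in 30 and 30 DMSO cells, against 23 and 23 and 25 and 14 BPTES cells. The same 4 barcodes held 110 of the 545 DMSO UMIs of Ms4a6c and 115 of the 246 of Msrb1. Without those 4 barcodes, 7 genes were called, all among the 14. Ace and F10 were no longer tested, and Ifitm6 (log2 fold change -1.44, edgeR adjusted p 0.191) and the methionine sulfoxide reductase gene Msrb1 (-0.72, edgeR adjusted p 0.321) were no longer called. Msrb1 had stood at 26.8 and 20.8 against 69.0 and 66.3 CPM. Ms4a6c, of the membrane-spanning 4A family, had stood at 59.9 and 64.5 against 146 and 153 CPM (-1.26 ± 0.14, edgeR adjusted p 0.0178), and was at -1.07 without them (edgeR adjusted p 0.0626). Srgap3 (0.64) and Selenop (-1.73) missed the threshold there with the same adjusted p. Entpd1 (1.04), Stk10 (1.02) and Tgfbr1 (1.44) were still called (edgeR adjusted p 0.0278, 0.0278 and 0.0285). The fixed monocyte list, which includes Ace, summed to 962 and 864 CPM with BPTES and 954 and 1309 CPM with DMSO, with 0 of its 9 genes at 0 UMIs over all libraries. The defining monocyte gene F13a1 had 1, 0, 1 and 42 UMIs and Ly6c2 had 42, 14, 16 and 34. Ccr2, another of the defining genes, had 882, 925, 1065 and 1472 UMIs. Treml4, on the same list as Ace, had 88, 58, 85 and 90 UMIs. The part of such cells in these results was not tested beyond this.

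**Figure D4:**
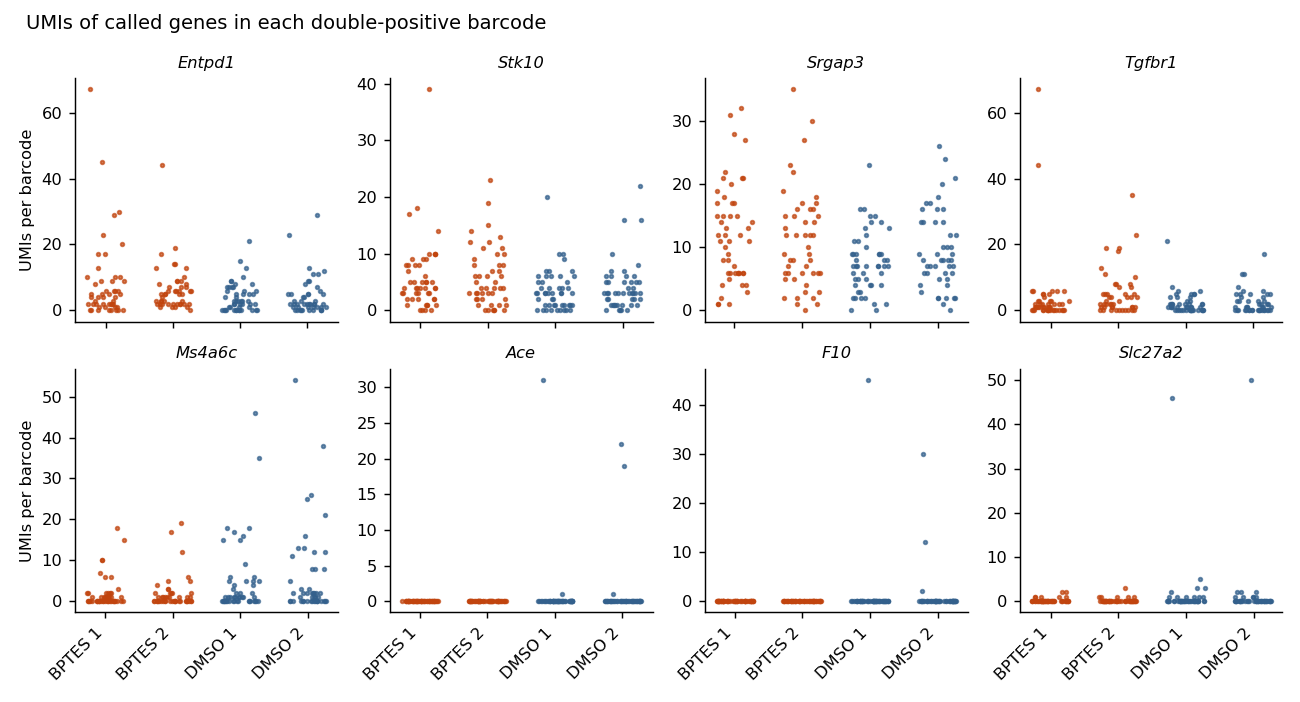
UMIs of 8 called genes in each of the 196 double-positive barcodes, 1 point per barcode, by library. Srgap3 is spread over nearly all cells, whereas Ace and F10 are carried by 1 to 3 barcodes in each DMSO library and by none in the BPTES libraries.

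The remaining genes changed in the same direction as a marker list of other cells, and the part of such cells was not tested. Slc27a2, a fatty acid transporter and acyl-CoA synthetase gene that is abundant in proximal tubule, stood at 5.62 and 5.55 against 38.3 and 31.3 CPM (-2.62 ± 0.31, edgeR adjusted p 0.0181), and 76.2% of its DMSO UMIs came from the highest barcode of each library. The cytochrome gene Cyp4b1 stood at 9.99 and 8.32 against 35.9 and 38.0 CPM, the alcohol dehydrogenase gene Adh1 at 0.624 and 0 against 18.9 and 13.4 CPM, and the selenium carrier gene Selenop at 13.7 and 27.0 against 70.7 and 70.4 CPM. These 3 fell as well (edgeR adjusted p 0.0304, 0.0357 and 0.0439). Slc27a2 and Adh1 passed the filter on low counts through the DMSO libraries alone. In cDC2 the unscaled levels were 81.6 and 45.7 against 61.6 and 51.9 CPM for Cyp4b1 and 214 and 148 against 124 and 133 CPM for Selenop. They were 59.7 and 21.3 against 52.0 and 47.6 CPM for Slc27a2 and 50.0 and 3.55 against 11.2 and 20.7 CPM for Adh1. The fixed proximal tubule list summed to 455 and 598 CPM with BPTES and 4382 and 1366 CPM with DMSO, with 0 of 12 genes at 0 UMIs. Much of the DMSO sum was Kap, a kidney androgen-regulated gene (3616 and 1317 UMIs), with 91.1% of its DMSO UMIs in the highest barcode of each library. Without those barcodes the log2 ratio of its mean levels moved from -3.74 to -0.31. With predicted doublets left out, Slc27a2 and Adh1 were no longer tested, and Cyp4b1 (-0.55, edgeR adjusted p 0.667) and Selenop (-0.89, edgeR adjusted p 0.251) were not called, while the other 10 of the 14 were.

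Igkc, the immunoglobulin kappa gene, stood at 186 and 280 CPM with BPTES and 55.4 and 53.4 CPM with DMSO (2.09 ± 0.20, edgeR adjusted p 0.0178). The plasma cell list, which includes Igkc itself, summed to 596 and 730 against 321 and 342 CPM. Igha, the heavy chain gene of immunoglobulin A on the same list, had 112 and 199 against 17 and 11 UMIs (3.73 ± 0.46) and was not called (edgeR adjusted p 0.0686). Of its 10 genes, Sdc1 had 0 UMIs in every library and Mzb1, a defining plasma cell gene, had 0, 2, 0 and 0. Igkc was found in 50 of 50 and 48 of 48 BPTES cells and in 38 of 50 and 40 of 48 DMSO cells. The joining chain gene Jchain stood at 16.2 and 27.0 against 2.36 and 3.08 CPM (2.94 ± 0.46) and was not called (edgeR adjusted p 0.0539). The part of RNA from plasma cells was not tested. In cDC2 of the same libraries Igkc rose too, at 199 and 275 against 42.4 and 44.6 CPM (2.45 ± 0.18, edgeR adjusted p 0.00121).

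No gene of the cDC1 identity list was called among the 26 members tested in the double-positive cells. At an unadjusted p under 0.05, 5 were higher (Rab7b, Ly75, Cd36, Hepacam2 and Cadm1) and 3 lower (Naaa, Cd24a and Sept3), where all genes had 7.35% higher and 7.18% lower. The median log2 fold change of the list was 0.04, against -0.00 for all genes. Naaa itself was lower in both BPTES libraries (-0.33 ± 0.07, edgeR adjusted p 0.115). Sept3, a septin gene, stood at 162 and 168 against 241 and 253 CPM (-0.58 ± 0.11, edgeR adjusted p 0.0908). The groups overlapped for the factor genes Irf8 (1588 and 1698 against 1664 and 1601 CPM), Batf3 and Id2.

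Of 13 tested heat shock genes, 12 had a fold change above 0 in the double-positive cells and in all selected cells, and none was called. These genes encode chaperones and co-chaperones that refold proteins. Of all genes outside the rule, 4516 of 9042 lay above 0 in the double-positive cells and 5173 of 10440 in the selected cells. The double-positive cells are part of the selected cells, so their counts are not independent. Among the double-positive cells, 6 of 13 tested members were higher at an unadjusted p under 0.05 and 0 lower (all genes 7.35% and 7.18%), with a list median of 0.33. The groups did not overlap for 8 members, all of them higher, against 23.5% of all genes. In all selected cells the counts were also 6 and 0 of 13, with a median of 0.33, where 4.67% of all genes were higher and 4.23% lower. Hsph1, the gene of HSP105, stood at 82.4 and 114 CPM with BPTES and 58.3 and 44.7 CPM with DMSO in the double-positive cells (0.93 ± 0.20, edgeR adjusted p 0.116). In the set with Siglech it stood at 39.2 and 77.2 against 12.6 and 17.7 CPM, and in that with little Siglech at 64.8 and 111 against 17.2 and 42.5 CPM. Each BPTES library was above each DMSO library in all 3 sets. Hsph1 was picked once these values were known, and the share of all genes with this pattern was not counted. Few of its UMIs lay in the sets without Xcr1. It had 180 and 235 against 117 and 117 UMIs in all selected cells, and 132 and 165 against 99 and 87 of these in the double-positive cells.

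Dnaja1, a co-chaperone of HSP70, stood at 287 and 417 against 227 and 210 CPM in the double-positive cells (0.69 ± 0.17, edgeR adjusted p 0.163). There the changes of Hsph1 and Dnaja1 were 1.17 and 0.94 without the first BPTES library, and 0.69 and 0.40 without the second. Hsp90aa1, the inducible cytosolic HSP90, stood at 531 and 589 against 407 and 375 CPM (0.52 ± 0.10, edgeR adjusted p 0.0977). Of 23 immediate early genes, which respond to tissue handling, 1 was higher (Jun) and 0 lower at an unadjusted p under 0.05 (all genes 7.35% and 7.18%), and 18 had a fold change above 0 and 5 below, with a median of 0.10. In all selected cells 12 were above 0 and 11 below. In cDC2 of the same libraries the changes of Hsph1, Dnaja1 and Dnajb1 were 1.29, 1.14 and 1.10, against 1.13, 0.77 and 0.79 in all selected cells, and none was called in either. The interaction was not called for these 3. Handling of the tissue as a source of the heat shock values was not tested beyond this. The proximal tubule and plasma cell lists of the double-positive cells, given above, also separated the groups, and their part was not tested. The window before Hsph1 is shown because its groups stood apart in all 3 sets, chr5:149636337-149636586 on the minus strand of GRCm38.p6, with capitals at the paired heat shock letters (GAANNTTC or TTCNNGAA, both strands).
Hsph1: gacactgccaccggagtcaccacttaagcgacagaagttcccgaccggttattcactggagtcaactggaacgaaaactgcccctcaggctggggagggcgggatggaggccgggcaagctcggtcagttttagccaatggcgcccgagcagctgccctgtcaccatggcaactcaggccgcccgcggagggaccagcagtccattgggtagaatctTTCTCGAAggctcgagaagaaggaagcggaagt
Of 11 heat shock genes with a window 7 held such a pair in a window, as did 14.5% of all 27025 genes with a window.

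**Figure D5:**
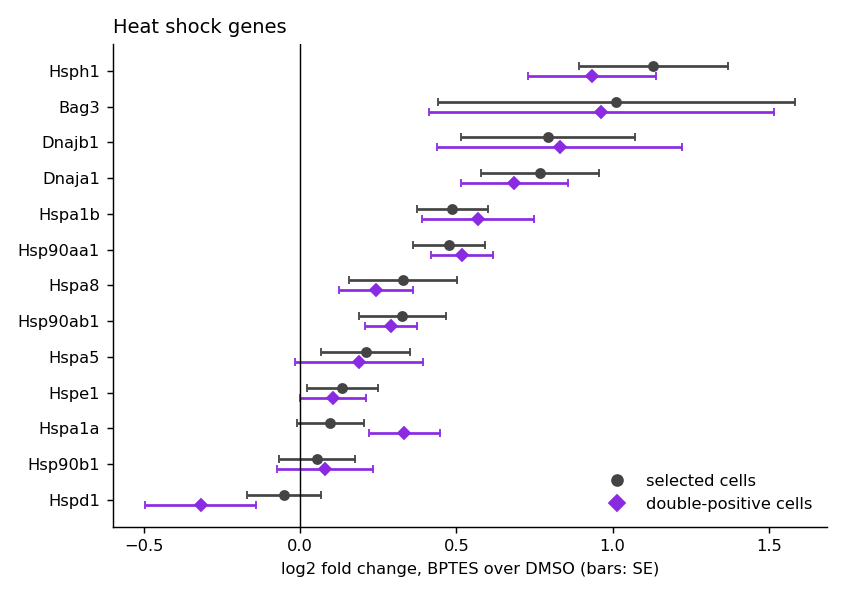
Log2 fold change (BPTES over DMSO, bars are the SE) of the 13 tested heat shock genes in the selected cells and in the double-positive cells. All but Hspd1 lie above 0 in both, and none was called.

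No gene of antigen presentation was called. The double-positive cells had 2 of 27 cross-presentation and MHC class I genes higher (Nlrc5 and Tap2) and 2 lower (Psmb9 and Sec22b) at an unadjusted p under 0.05, close to the 7.35% and 7.18% of all genes, with a median of -0.00. For MHC class II presentation 0 of 12 were past that limit, with a median of -0.03. In all selected cells 0 of 27 class I genes and 2 of 12 class II genes, both lower (H2-DMb2 and Lgmn), were past it (all genes 4.67% higher and 4.23% lower).

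Maturation genes, which dendritic cells turn on as they migrate to lymph nodes, had more members lower than higher in the selected cells. The rule allowed at most 1 UMI of Ccr7, so cells with more of it were left out before this list was read. Of 26 tested in the selected cells, 8 were lower and 2 higher at an unadjusted p under 0.05, where all genes had 4.23% lower and 4.67% higher, with a median of -0.33. The cDC2 markers (746 and 846 against 972 and 995 CPM) of these cells were also lower in both BPTES libraries. So were the proximal tubule markers (1809 and 1088 against 3578 and 1900 CPM), and the part of either was not tested. In the double-positive cells the counts were 3 lower (Cd274, Fabp5 and Cd63) and 3 higher (Cd80, Serpinb9 and Serpinb6b) of 22 (all genes 7.18% and 7.35%), with a median of -0.15. Cd274, the gene of the checkpoint ligand PD-L1, stood at 9.99 and 5.55 against 43.0 and 28.3 CPM in the double-positive cells (-2.16 ± 0.36, edgeR adjusted p 0.0612). It was detected in 4, 6, 8 and 14 cells. Cd80, a costimulatory ligand, stood at 37.5 and 70.7 against 21.2 and 23.1 CPM (1.27 ± 0.31, edgeR adjusted p 0.150). Serpinb9, an inhibitor of granzyme B, had 53 and 48 against 22 and 29 UMIs (1.24 ± 0.25, edgeR adjusted p 0.108), and was at 0.71 on the log2 scale without the highest barcode of each library.

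Of 35 interferon response genes in the selected cells, 8 were lower and 0 higher at an unadjusted p under 0.05 (all genes 4.23% and 4.67%), with a median of -0.23 and no call. In those cells the cDC2 markers (746 and 846 against 972 and 995 CPM) and the proximal tubule markers (12 genes, 0 at 0 UMIs; 1809 and 1088 against 3578 and 1900 CPM) were also lower in both BPTES libraries, and their part was not tested. The double-positive cells had 5 higher (among them Ifi203, Isg20, Bst2 and Trim30a) and 3 lower (Gbp5, Oasl2 and Iigp1) of 28, where all genes had 7.35% higher and 7.18% lower, with a median of -0.05. Bst2 is also on the plasmacytoid list, which summed to 549 and 322 against 282 and 292 CPM in the double-positive cells (9 genes, 0 at 0 UMIs), and its part was not tested. Iigp1 and Gbp5 came from few barcodes, with 73.9% and 67.2% of their DMSO UMIs in the highest barcode of each library.

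Among metabolic genes, glycolysis had 6 lower and 1 higher of 16 in the double-positive cells at an unadjusted p under 0.05 (all genes 7.18% and 7.35%), with a median of -0.25. Gapdh stood at 534 and 544 against 677 and 701 CPM (-0.35 ± 0.09, edgeR adjusted p 0.138), and Ldha, the lactate dehydrogenase gene, at 255 and 274 against 334 and 360 CPM (-0.39 ± 0.10, edgeR adjusted p 0.159). Their groups did not overlap. Without the highest barcode of each library the log2 ratio of mean levels was -0.28 for Gapdh and -0.34 for Ldha. The proximal tubule markers of these cells, given above, were also lower in both BPTES libraries, and their part in the glycolysis values was not tested. Of 20 genes of glutamine and glutamate metabolism 1 was lower (Slc7a11, the cystine and glutamate exchanger) and 0 higher, with a median of -0.22. Slc7a11 came from 1 and 1 BPTES and 2 and 3 DMSO barcodes, with 80.6% of its DMSO UMIs in the highest barcode of each library. Glul, glutamine synthetase, stood at 33.7 and 28.4 against 43.6 and 33.4 CPM (-0.30 ± 0.23, edgeR adjusted p 0.577). Of 18 amino acid stress genes 2 were higher (Cebpg and Herpud1) and 2 lower (Cebpb and again Slc7a11). Ccnd3, another D-type cyclin, stood at 207 and 283 against 153 and 129 CPM (0.80 ± 0.16, edgeR adjusted p 0.114), and its levels were also higher in both BPTES libraries in the sets without Xcr1.

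Of the other genes named for this series, Cdkn1a had 42 and 14 against 14 and 26 UMIs in the double-positive cells, and its groups overlapped. Cdkn2a had 0 and 0 against 1 and 2 UMIs, Vcam1 0 and 1 against 1 and 3, and Retnla 0 and 0 against 3 and 0, too few to compare. Il1b stood at 69.3 and 189 against 236 and 191 CPM (-0.73 ± 0.58, edgeR adjusted p 0.649). Ccl22 stood at 4.37 and 39.5 against 22.4 and 30.3 CPM, held by 2, 2, 5 and 3 cells, and Il4i1 had 4 and 2 against 10 and 5 UMIs.

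Whether the selected cells and cDC2 responded differently was tested as an interaction of cell type and treatment with library as a block. Of 10951 genes 10 were called (0.0913%), 1 higher (0.00913%) and 9 lower (0.0822%) in the selected cells relative to cDC2, and 681 (6.22%) had an unadjusted p under 0.05. The named ones were Timp3 and Igfbp7, an inhibitor of matrix proteases and a secreted matrix protein, Adgre4, an adhesion receptor of myeloid cells, and Pde4d, a phosphodiesterase of cyclic AMP. The interaction of Pde4d was -1.74 ± 0.22 (edgeR adjusted p 0.0408), with 48.1 and 39.1 against 88.4 and 112 CPM in the selected cells and 168 and 150 against 113 and 101 CPM in cDC2. The groups did not overlap in either cell type and lay in opposite order. Most UMIs of Pde4d in the selected cells lay in members without Xcr1. It had 126 and 83 UMIs with BPTES and 265 and 307 with DMSO in the selected cells. In the double-positive cells it had 28 and 26 against 35 and 81, and its interaction was not called there. Fgf13, chosen once its values were known, was the 1 call in the other direction (4.40 ± 0.52, edgeR adjusted p 0.0350), with 64 and 89 against 56 and 75 UMIs in the selected cells and 4 and 2 against 76 and 79 in cDC2. The number of calls was 0 without the second BPTES library, with predicted doublets left out and with at least 4 UMIs of Xcr1 and Clec9a together (707, 588 and 514 genes at an unadjusted p under 0.05 by edgeR, and 14 calls by DESeq2 with all libraries, of which 7 were among the 10). Without the first BPTES library 5 of the 10 were called, and with at most 2 UMIs of Siglech 1 of the 10. It was 175 and 236 without the first and second DMSO library.

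With the double-positive cells in place of the selected cells, the interaction called 22 of 10273 genes (0.214%), 7 higher (0.0681%) and 15 lower (0.146%), with 720 (7.01%) at an unadjusted p under 0.05 and 3 calls shared with the 10. Fgf13 was again among them (4.82 ± 0.51, edgeR adjusted p 0.00994). Cd80 differed by 1.66 ± 0.22 (edgeR adjusted p 0.0247), with a fold change of 1.27 in the double-positive cells and -0.38 in cDC2. The unscaled levels of Cd80 in cDC2 overlapped between the groups (156 and 231 against 220 and 274 CPM). Its change in the double-positive cells was 1.68 without the first BPTES library and 0.76 without the second. Ifitm6 (-2.68), Msrb1 (-1.74) and Ms4a6c (-1.21) also differed, and these 3 missed the threshold of the main comparison without the 4 barcodes named above. Entpd1, Tgfbr1, Stk10 and Srgap3 were not among the 22, so a difference from cDC2 was not shown for them. In cDC2 their changes were 0.44, 0.38, 0.20 and -0.06, and none was called. The interaction with the double-positive cells was not refitted without single libraries or predicted doublets, so how far the 22 calls depend on them is not known.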

How the data were processed

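The authors deposited unnormalised UMI counts for 31054 features in each of 4 libraries of 10x Genomics 3′ chemistry, and Cell Ranger 8.0.1 and mm10 are named in the submitters' processing notes. The annotation is not given in the sources used here. The sums that were tested left out the feature named tdTomato. Barcodes were kept with at least 500 UMIs, 300 genes and at most 50% mitochondrial UMIs. The members, the gene lists (29) and the tests were chosen with earlier results of these data known, and the lists found no match for 4 symbols. Counts were summed per library and tested with edgeR 4.0.16 (robust quasi-likelihood, TMM, filterByExpr, Benjamini-Hochberg), with DESeq2 1.42.0 as an alternative. The SE is the absolute log2 fold change over the root of edgeR's F. The edgeR fits were tested on simulated data. Predicted doublets (546 to 690 barcodes a library) were kept in the reported results and left out as an alternative. They were marked from Scrublet scores (scanpy 1.11.5) at an assumed rate that rose with the number of barcodes in a library. Scrublet's own threshold marked fewer, 122 to 202 barcodes a library, and leaving out only those was not tested. Named were the selection and identity genes, called genes of at least 5 log2 CPM, list members past the threshold, genes named for the whole series, and interaction calls of at least 5 log2 CPM. Others are named after their values were seen. Alternatives covered scaling, the filter, a replicate block, single libraries, mitochondrial and immunoglobulin genes, and the limits of the rule. Those on Siglech and within the double-positive cells (among them the 4 barcodes with Ace or F10) were chosen after seeing the data. Promoter windows came from RefSeq (GRCm38.p6, the assembly behind mm10).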

Additional observations from a re-analysis of the deposited data

Results flagged for a closer look

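Timp3, Igfbp7, Adgre4 and Pde4d responded differently in the selected cells and in cDC2 by the test of the interaction (edgeR adjusted p 0.00820, 0.0156, 0.0350 and 0.0408). The differences in log2 fold change were -2.76 for Timp3, -2.50 for Igfbp7, -2.75 for Adgre4 and -1.74 for Pde4d. Timp3 had 148 and 24 UMIs against 339 and 251 (BPTES against DMSO) in the selected cells, and 527 and 93 against 321 and 152 in cDC2. The highest barcodes of the libraries held 68.0% of its BPTES and 75.4% of its DMSO UMIs in the selected cells. Those shares were 40.2% and 39.3% for Igfbp7 and 65.7% and 32.4% for Adgre4, and for Pde4d the highest barcodes held 53.5% of the DMSO UMIs. In the double-positive cells Timp3 had 18 and 14 against 61 and 32 UMIs. In cDC2 the unscaled levels of Timp3 were 222 and 47.2 CPM with BPTES and 57.2 and 59.3 CPM with DMSO. Those of Adgre4 were 81.6 and 35.5 against 50.4 and 24.2 CPM, so the groups overlapped in cDC2 for both genes. Those of Igfbp7 were 125 and 53.3 against 37.9 and 37.9 CPM, with the groups apart. Of the 4 genes, Igfbp7 alone was among the 22 calls of the interaction in the double-positive cells. None of the 4 was called without the second BPTES library, with predicted doublets left out or with at least 4 UMIs of Xcr1 and Clec9a together, where the interaction had 0 calls, nor with at most 2 UMIs of Siglech. Adgre4 and Pde4d were not called without the first BPTES library, and Adgre4 was not called with at most 2 C1q UMIs. The part of single barcodes in these differences was not tested.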

How the results depend on the processing

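Of the reported 1 call in the selected cells, the number became 17 with DESeq2, 297 with no filter on low counts, 4 with predicted doublets left out, 0 with at least 4 UMIs of Xcr1 and Clec9a (858 genes at an unadjusted p under 0.05 by edgeR), 14 in the double-positive cells, 2 with at most 2 C1q UMIs, 133 with at most 2 Siglech UMIs, and 2 to 39 without 1 library. Of the 14 in the double-positive cells, it became 47 with DESeq2, 585 with no filter, 23 without doublets, 7 without the 4 barcodes of Ace or F10, and 83 to 287 without 1 library. Of the 10 interaction calls, it became 128 with no filter, 0 without doublets or with at least 4 UMIs of Xcr1 and Clec9a, 22 in the double-positive cells, 4 with at most 2 Siglech UMIs, and 0 to 236 without 1 library. The same-numbered libraries share only a number (correlation of deviations 0.18 and 0.01 in the selected and double-positive cells). With the replicate number as a block, 38 and 39 genes were called. The cause of these moves was not tested. Without 1 library, the Ear2 change ranged from -2.14 to -1.98 and was called each time; it was not called with at least 4 UMIs of Xcr1 and Clec9a (-1.47). The difference in share of Ptprc-positive barcodes turned to 0.0560 percentage points without doublets, 0.0470 with at least 4 UMIs of Xcr1 and Clec9a, 0.0400 in the double-positive cells and 0.127 with at most 2 C1q UMIs, and lay from -0.115 to 0.0602 without 1 library. That of dendritic barcodes stayed above 0, from 9.79 to 19.7 without 1 library. Values that were not called changed sign. In the selected cells, without 1 library, Irf8 lay from -0.023 to 0.13, Batf3 from -0.33 to 0.13, Itgae from -0.45 to 0.13, Glul from -0.61 to 0.082, Cdkn1a from -0.25 to 0.068 and Ccl22 from -3.17 to 0.14. With at least 4 UMIs of Xcr1 and Clec9a the values were -0.098 for Irf8, -0.041 for Wdfy4, 0.11 for Glul and 0.89 for Cdkn1a, and in the double-positive cells 0.19 for Mgl2, 0.73 for Cdkn1a and 0.00998 for H2-DMb2. Within the double-positive cells Irf8 lay from -0.031 to 0.067 without 1 library, and was -0.032 without doublets and -0.021 without the 4 barcodes. Of 512, 305 and 52 values for single genes under other settings (selected, double-positive and interaction), 437, 265 and 30 kept direction and side of the threshold. The sets without Xcr1 hold 8 to 28 barcodes a library, and their values are given with no test.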
